A study of Mus musculus with 12 samples.

Results

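Aquaporins are membrane channels that let water follow an osmotic gradient across a cell. Aqp1, Aqp2, Aqp4 and Aqp5 are the classical water channels, Aqp8 passes water and other small molecules, Aqp3, Aqp7 and Aqp9 also pass glycerol and are called aquaglyceroporins, and Aqp11 and Aqp12 are distant members that sit largely on membranes inside the cell. In the exocrine pancreas Aqp8 lies in the apical membrane of acinar cells, the cells that make digestive enzymes, Aqp12 is an acinar protein, and Aqp1 is found in ducts and in the endothelium of small vessels. Fluid secretion there begins with ion transport, which draws water through such channels.

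All probe sets whose single gene symbol is Aqp1, Aqp2, Aqp3, Aqp4, Aqp5, Aqp7, Aqp8, Aqp9, Aqp11 or Aqp12 were taken, which gave 19 of the 45037 probe sets and 10 of the 18193 named genes on the array. The family was selected on 1 of its readouts, the fall of Aqp8 at E16.5. For this reason the E16.5 values of the 19 probe sets are described without a test, and the members were tested at E14.5 only.

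The data are 12 Affymetrix arrays, 1 per whole embryonic mouse pancreas with none pooled. Each day, E14.5 and E16.5, had 2 wildtype and 4 β-catenin KO pancreata. The deposited text calls the earlier day E14.6. The KO embryos were Pdx1Cre/+; beta-catenin flox/flox, from an intercross of Pdx1Cre/+; beta-catenin flox/+ mice, and the sources used here do not spell out which Cre and flox alleles the wildtype embryos carried. Cre was driven by the Pdx1 promoter, which is active in pancreatic epithelium and not in vessels, mesenchyme, nerve or blood, and its activity is described by the authors as probably mosaic. Each value is the signal divided by the day's wildtype average, so 1 is the wildtype mean. Such ratios hold no transcript level and no time course, and a ratio near 1 can also come from a transcript that is hardly present. In whole pancreas, fewer cells of a type and less RNA per cell cannot be told apart.

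The arrays differed a little as wholes. The median ratio over all probe sets was 1.07 in KO_540G and 1.04 in KO_591D, and 0.970 to 1.01 in the other 10 pancreata. In the same 2 pancreata 17 and 14 of the 19 aquaporin probe sets lay above 1, the 2 highest counts of the 12. The 3 probe sets of Ctnnb1, the targeted gene, had KO means of 0.841 to 1.21 at E14.5 and 0.678 to 0.961 at E16.5, and none passed in limma (adjusted p = 0.152 to 0.920). Whether these probe sets lie inside the deleted exons is not known here.

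Aqp8 and Aqp12 were the 2 family members lowest in the KO at E16.5, so the 250 bases before their starts are shown, as RefSeq gives them in build GRCm38.p6, 5′ to 3′ on the plus strand of both. Capitals mark matches, on either strand, to CACCTG or TTCCCA, the E-box and the companion box in the bipartite site of the acinar factor PTF1, to CTTTGA, the core recognised by TCF and LEF, the partners of β-catenin, or to TATAAA. The Aqp8 window is chr7:123462044-123462293 and the Aqp12 window is chr1:93006084-93006333.
Aqp8: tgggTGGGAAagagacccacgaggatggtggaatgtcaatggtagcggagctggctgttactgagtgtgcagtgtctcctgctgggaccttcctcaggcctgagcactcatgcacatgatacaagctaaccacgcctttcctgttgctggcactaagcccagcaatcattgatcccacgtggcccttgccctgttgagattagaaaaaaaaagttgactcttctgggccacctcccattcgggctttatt
Aqp12: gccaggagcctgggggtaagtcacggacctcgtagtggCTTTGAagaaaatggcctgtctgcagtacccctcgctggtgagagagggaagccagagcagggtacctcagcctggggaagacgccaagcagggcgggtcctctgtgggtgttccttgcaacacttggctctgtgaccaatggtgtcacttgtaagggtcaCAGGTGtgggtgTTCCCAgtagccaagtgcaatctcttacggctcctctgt
The Aqp8 window held 1 match, TGGGAA, which is TTCCCA read on the other strand and begins 246 bases before the start. The Aqp12 window held CTTTGA at 212 bases, CAGGTG, which is the E-box letters on the other strand, at 51 and TTCCCA at 39 bases before the start, with none overlapping another. Among all 32851 RefSeq windows of this length, 17.2% held CACCTG, 21.6% held TTCCCA, 13.8% held CTTTGA and 12.4% held TATAAA on either strand. Windows were given for 9 of the 10 genes, the exception being Aqp4. Of the 9 genes, 4 held CACCTG (Aqp1, Aqp3, Aqp7, Aqp12), 5 held TTCCCA (Aqp1, Aqp8, Aqp9, Aqp11, Aqp12), 2 held CTTTGA (Aqp9, Aqp12) and 1 held TATAAA (Aqp3). Aqp7 and Aqp9 had more than 1 window, and a gene was counted if any of its windows matched. Counted by window, as the percentages are, 5 of 11 held CACCTG, 5 TTCCCA, 2 CTTTGA and 1 TATAAA. A match of letters is a description and not a site of binding.

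At E14.5 the KO ratios of Aqp8 were 1.08 for KO_540C, 1.06 for KO_540G, 1.29 for KO_615A and 1.13 for KO_615B, beside 1.04 and 0.965 in WT_522B and WT_522C. All 4 KO pancreata lay above both wildtype pancreata, by little. Their mean was 1.14 ± 0.106 (SD, n = 4), and the log2 difference from wildtype of 0.19 did not pass (standard error 0.61, limma adjusted p = 0.986). The standard error is wide because limma shares 1 spread per probe set between the days. A fit on the 6 arrays of E14.5 alone gave an adjusted p of 0.869.

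At E16.5 the ratios of Aqp8 were 0.0558 in KO_541J, 0.0367 in KO_541L, 0.190 in KO_591C and 0.238 in KO_591D, beside 0.716 in WT_622A and 1.28 in WT_628G. Every KO pancreas was below both wildtype pancreata, and KO_541J and KO_541L were lower than KO_591C and KO_591D. What the number in a name stands for is not stated, and no number is shared by KO and wildtype of a day, so number and genotype cannot be told apart. The KO mean was 0.130 ± 0.0992 (SD, n = 4), a log2 difference of -3.29, which became -2.03 after quantile normalization.

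Aqp12, the acinar member of the intracellular branch, had the same order at E16.5. Its ratios were 0.385 in KO_541J, 0.288 in KO_541L, 0.399 in KO_591C and 0.489 in KO_591D, beside 0.866 in WT_622A and 1.13 in WT_628G. The groups did not overlap, and the KO mean was 0.390 ± 0.0822 (SD, n = 4), a log2 difference of -1.37. At E14.5 its KO ratios were 1.01 for KO_540C, 1.33 for KO_540G, 1.19 for KO_615A and 1.24 for KO_615B, beside 1.02 and 0.977 in wildtype. The value of KO_540C lay between the wildtype pancreata and the other 3 above both, with a mean of 1.19 ± 0.135 (SD, n = 4) that did not pass (log2 difference 0.25, standard error 0.19, limma adjusted p = 0.890).

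Markers of acinar cells moved with both genes at E16.5. Of 12 acinar genes measured of 14 listed, all 4 KO pancreata were below both wildtype pancreata in 10, where 11.1% of all probe sets were. Of the 12, 5 fell (limma adjusted p = 0.000604 to 0.0422), where 2.62% of all probe sets passed in either direction. These were Cel, carboxyl ester lipase, with a log2 difference of -2.97, Cuzd1 and Zg16, proteins of zymogen granules, with -3.40 and -2.77, Gp2, their membrane glycoprotein, with -1.06, and Rbpjl, a subunit of PTF1, with -1.14. The median acinar ratio was 0.342 in KO_541J, 0.200 in KO_541L, 0.459 in KO_591C and 0.552 in KO_591D, against 0.961 and 1.04 in wildtype, which is the order of Aqp12 and Aqp8 in these 4 pancreata. At E14.5 the median was 0.736 for KO_540C, 0.789 for KO_540G, 1.28 for KO_615A and 0.424 for KO_615B. The list leaves out Cela3b (Ela3b in the paper) and Amy2, an elastase and an amylase, which the paper reports as raised at E14.5. The median therefore stands for the listed genes only. The acinar genes were not alike at that day, with KO means from 0.482 for Cela1 to 1.08 for Gp2. Among the 5 that fell at E16.5, the E14.5 KO means of Cuzd1 (0.969), Zg16 (1.07) and Gp2 (1.08) were near 1, as were those of Aqp8 (1.14) and Aqp12 (1.19), and those of Cel (0.648) and Rbpjl (0.766) were lower. On other probe sets the E14.5 KO means were 1.30 and 1.56 for Zg16 and 1.06 for Rbpjl. At E16.5 the other Zg16 probe sets also fell, with log2 differences of -6.25 and -5.41. The other Rbpjl probe set did not pass at E16.5 (log2 difference -0.06, limma adjusted p = 0.850), so the fall of Rbpjl rests on 1 probe set. No acinar gene passed at E14.5 in limma, and 0 had an unadjusted p under 0.05. The part of the acinar markers in the Aqp8 and Aqp12 values was not tested.

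**Figure D1:**
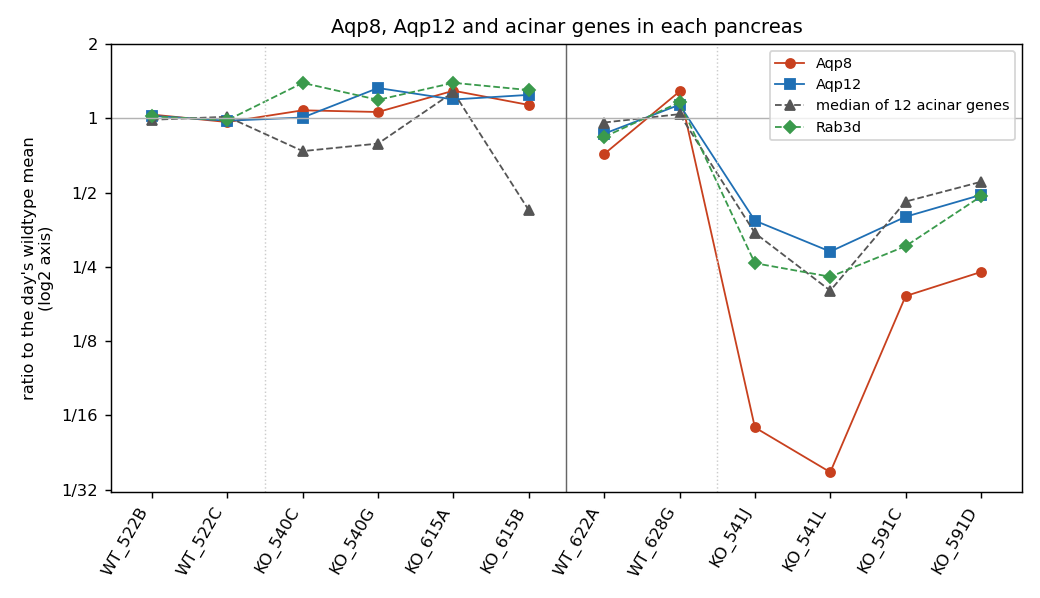
Ratio to the wildtype mean of the day (vertical log2 axis) in each of the 12 pancreata (horizontal axis) for Aqp8, Aqp12, the median of 12 acinar genes and Rab3d, a small GTPase of secretory granules. Lines join pancreata within a day only to guide the eye; at E16.5 all 4 series are lowest in KO_541L and highest among the KO in KO_591D, and at E14.5 the acinar median falls to 0.424 in KO_615B while Aqp8 and Aqp12 stay at 1.01 or above in all 4 KO.

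Aqp8 is also known from colon and liver. Of 5 intestinal markers 1 fell at E16.5, Vil1, which encodes villin of brush borders (log2 difference -1.23, limma adjusted p = 0.00356), and 0 passed at E14.5. The median of the 5 was 0.904 to 1.02 in the E16.5 KO pancreata. Of 6 liver markers 0 passed at either day, with 3 at an unadjusted p under 0.05 at E16.5, and their median was 1.08 to 1.46 in the E16.5 KO. Their part in the Aqp8 values was not tested.

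The genes whose ratios most resembled those of Aqp8 over the 12 arrays, by the root mean square difference of log2 ratios, were Gnmt (0.353), a glycine methyltransferase, Cela3b (0.396), a pancreatic elastase, Epb41l4b (0.440), Anxa13 (0.444), an annexin, and Kctd14 (0.450). Anxa13 is also on the list of duct markers, the others of which stood 1.22 (Muc1) to 2.36 (Krt7) from Aqp8. The acinar markers stood 0.612 (Zg16) to 2.14 (Bhlha15) from Aqp8. The 5 were the nearest of 18192 genes, and the median difference from Aqp8 over all 45037 probe sets was 2.07. In this ranking each gene stood with its nearest probe set only, and its other probe sets may differ. On the nearest probe sets the KO means of the 5 at E16.5 ran from 0.0900 for Epb41l4b to 0.160 for Kctd14. At E14.5 they ran from 1.07 for Anxa13 to 1.48 for Kctd14. The E14.5 mean of Cela3b was 1.21 on its nearest probe set. The paper, which calls this gene Ela3b, reports a strong rise at that day on all of its probe sets. The mean of 1.21 is not a strong rise, so it differs from that report. Other probe sets of Cela3b were not compared with it here. The nearness of Cela3b to Aqp8 at E14.5 is therefore given for that probe set only. For Aqp12, examined after its values were seen, the 5 nearest were Ndrg1, Rab39b, Slc39a11, Nceh1 and Gstt2 (0.201 to 0.209, against a median of 0.857).

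Aqp1, the water channel of ducts and capillaries, varied between pancreata of 1 genotype. At E14.5 its ratios were 1.63 for KO_540C, 1.24 for KO_540G, 1.01 for KO_615A and 1.62 for KO_615B, beside 1.06 and 0.939 in wildtype. All but KO_615A exceeded both wildtype pancreata. The mean of 1.38 ± 0.303 (SD, n = 4) did not pass (log2 difference 0.44, standard error 0.30, limma adjusted p = 0.858).

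In the E16.5 pancreata Aqp1 was at 0.722 in KO_541J, 1.10 in KO_541L, 0.614 in KO_591C and 0.519 in KO_591D, with 1.27 in WT_622A and 0.733 in WT_628G. The wildtype pancreata were themselves far apart, and KO_541L lay between them. The log2 difference was -0.44, and it ran from -0.84 without WT_628G to -0.05 without WT_622A.

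Krt19, a keratin of duct cells, had ratios close to those of Aqp1 in most pancreata. Krt19 was at 2.07, 1.12, 1.11 and 2.42 in KO_540C, KO_540G, KO_615A and KO_615B, and at 0.769, 1.0, 0.609 and 0.575 in KO_541J, KO_541L, KO_591C and KO_591D, with 1.30 in WT_622A and 0.695 in WT_628G. The root mean square log2 difference between Krt19 and Aqp1 was 0.215 over the 12 arrays, where the median over all probe sets was 0.551. This pair was noticed after the values were seen, and the other 5 duct markers stood farther from Aqp1, from 0.612 for Onecut1 to 1.56 for Anxa13. Duct markers differed in how far they shared the E14.5 pattern of Krt19. Krt7, the other keratin of the list, was at 1.27 in KO_540C and 1.39 in KO_615B. It was at 0.801 in KO_540G and 0.959 in KO_615A, beside 0.953 and 1.05 in wildtype. The E14.5 KO mean was 1.68 for Krt19, while Sox9 (0.665) and Muc1 (0.601) were below both wildtype pancreata in all 4 KO. None of the 6 duct markers passed at E14.5 (2 at an unadjusted p under 0.05). The duct median was 0.795 to 1.02 in the E14.5 KO and 0.615 to 0.675 in the E16.5 KO. Of 8 endothelial markers none passed at either day (0 and 2 at an unadjusted p under 0.05), and their median was 0.957 to 1.16 in the E14.5 KO and 1.01 to 1.44 in the E16.5 KO, highest in KO_541L. Among 6 red cell markers, which share Aqp1 as a membrane protein of their cell, 0 passed at either day (5 at an unadjusted p under 0.05 at E14.5), with medians of 0.692 to 0.971 in the E14.5 KO. These 5 went both ways, with E14.5 KO means of 0.574 to 0.796 for 3 embryonic globins and Epb42 and of 1.48 for Alas2, the heme synthesis enzyme of red cells. Alas2 (0.361) and Slc4a1 (0.378), the red cell anion exchanger, stood nearer to Aqp1 than each of the 8 endothelial markers (0.472 to 0.707) and than each duct marker except Krt19. The other red cell markers stood farther off, from 0.633 for Epb42 to 0.989 for Hbb-y. The part of vessels, ducts or blood in the Aqp1 values was not tested.

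Aqp4, the water channel of astrocytes and of gastric parietal cells, has 3 probe sets that disagreed. On 1434449_at the E14.5 ratios were 0.971 for KO_540C, 0.838 for KO_540G, 4.43 for KO_615A and 0.939 for KO_615B, beside 1.06 and 0.945 in wildtype. Only KO_615A stood above wildtype on this probe set. The log2 difference of 0.44 (standard error 0.68, limma adjusted p = 0.963) became -0.13 without KO_615A. Its E16.5 ratios were 0.453 in KO_541J, 0.225 in KO_541L, 0.876 in KO_591C and 1.04 in KO_591D, beside 1.09 and 0.907 in wildtype. The median of the acinar genes was likewise highest among the E14.5 KO in KO_615A and lowest among the E16.5 KO in KO_541L, and its part was not tested.

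The other 2 Aqp4 probe sets did not show this. In KO_615A they were at 1.05 (1425382_a_at) and 1.21 (1447745_at), and in KO_541L at 1.04 and 0.942. On 1447745_at the E14.5 ratios of 1.10 to 1.26 were all above wildtype (0.985 and 1.02). This was the one aquaporin probe set below an unadjusted 0.05, and it did not pass (log2 difference 0.23, limma adjusted p = 0.677). By the same distance measure the 4 nerve and glia markers differed from 1434449_at by 0.876 (Gfap) to 2.38 (Fabp7), and the 6 stomach markers by 0.794 (Tff2) to 1.26 (Sox2). The median over all probe sets was 0.961. Fabp7, a fatty acid binding protein of glia, had a KO mean of 6.56 at E16.5 and did not pass (log2 difference 2.47, limma adjusted p = 0.0533). The 5 genes closest to 1434449_at, looked up after its values were seen, were Mtm1, Hnrnpu, Fam81a, Iah1 and Serpinb1a (0.448 to 0.548).

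**Figure D2:**
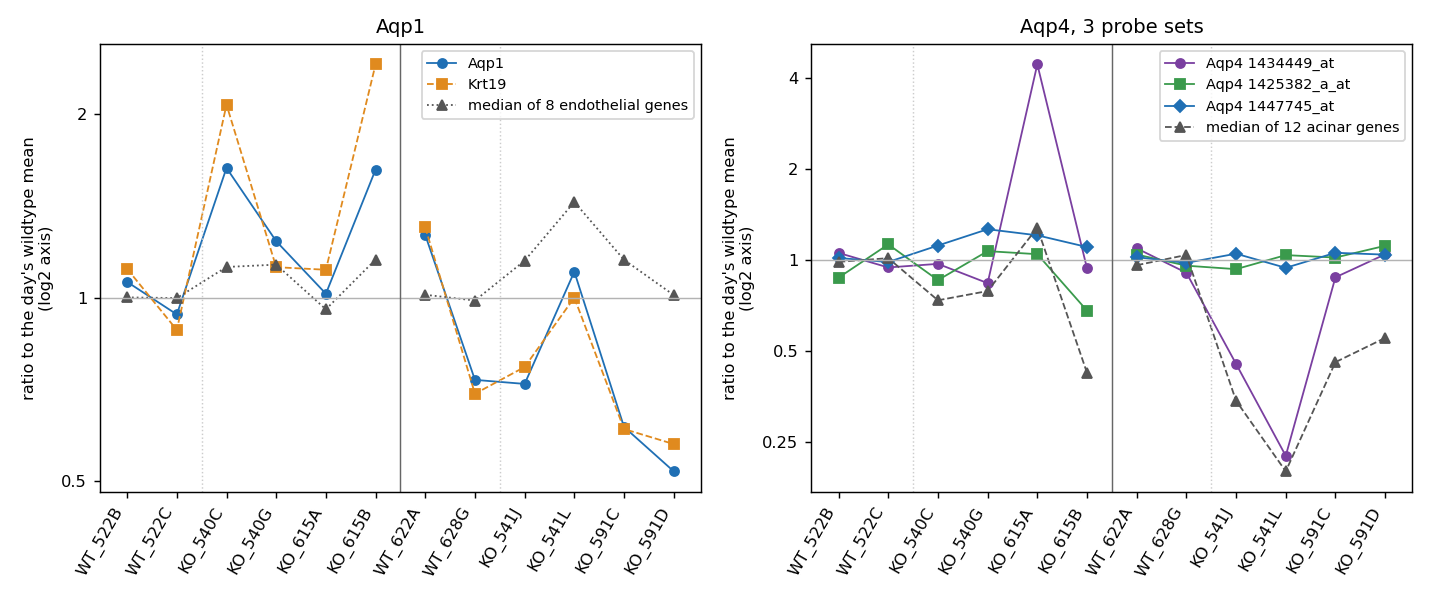
Ratio to the wildtype mean of the day (vertical log2 axes) in each pancreas (horizontal axis) for Aqp1 with Krt19 and the median of 8 endothelial genes (left), and for the 3 Aqp4 probe sets with the median of 12 acinar genes (right). Aqp1 and Krt19 are both high in KO_540C and KO_615B and low in KO_591C and KO_591D, and of the Aqp4 probe sets 1434449_at alone reaches 4.43 in KO_615A and 0.225 in KO_541L.

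Aqp5, the secretory water channel of salivary and lacrimal glands, was the one aquaporin above both wildtype pancreata in every E16.5 KO pancreas. Its ratios were 1.36 in KO_541J, 1.14 in KO_541L, 1.15 in KO_591C and 1.23 in KO_591D, beside 1.03 and 0.965, with a mean of 1.22 ± 0.0995 (SD, n = 4). At E14.5 they ran from 0.907 in KO_615A to 1.30 in KO_540G, and the groups overlapped (log2 difference 0.07, limma adjusted p = 0.970). Aqp2, the vasopressin-regulated channel of the kidney collecting duct, is its neighbour on chromosome 15. Aqp2 was at 1.06 to 1.17 in the E14.5 KO against 0.980 and 1.02 in wildtype, and its log2 difference of 0.17 did not pass (limma adjusted p = 0.802). At E16.5 Aqp2 overlapped wildtype, with KO ratios of 0.946 to 1.12.

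Aqp11, a channel of the endoplasmic reticulum, also has 3 probe sets that differed. On 1429254_at the E16.5 ratios were 0.774 in KO_541J, 0.709 in KO_541L, 0.850 in KO_591C and 0.896 in KO_591D, all below wildtype (0.919 and 1.08) and again lowest in KO_541L. At E14.5 this probe set was at 1.13, 1.14, 1.01 and 1.08 in KO_540C, KO_540G, KO_615A and KO_615B, above both wildtype values (0.997 and 1.003) in all 4, and it did not pass (log2 difference 0.12, limma adjusted p = 0.921). The other Aqp11 probe sets overlapped wildtype at both days, with E16.5 log2 differences of -0.04 and 0.15.

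The aquaglyceroporins stayed near 1. Over the 4 probe sets of Aqp3, known from epidermis and kidney, KO ratios ran from 0.871 to 1.21 at E14.5 and from 0.807 to 1.12 at E16.5. Over the 2 of Aqp9, the glycerol channel of liver, they ran from 0.784 to 1.33 and from 0.876 to 1.27. Aqp7, the glycerol channel of fat cells, was at 0.887 to 1.05 over its 2 probe sets at E14.5 and at 0.825 to 1.03 at E16.5, when 1418849_x_at was below both wildtype values in all 4 KO. None of these 8 probe sets passed at E14.5 (limma adjusted p = 0.846 to 0.9996), and their log2 differences lay between -0.12 and 0.15.

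**Figure D3:**
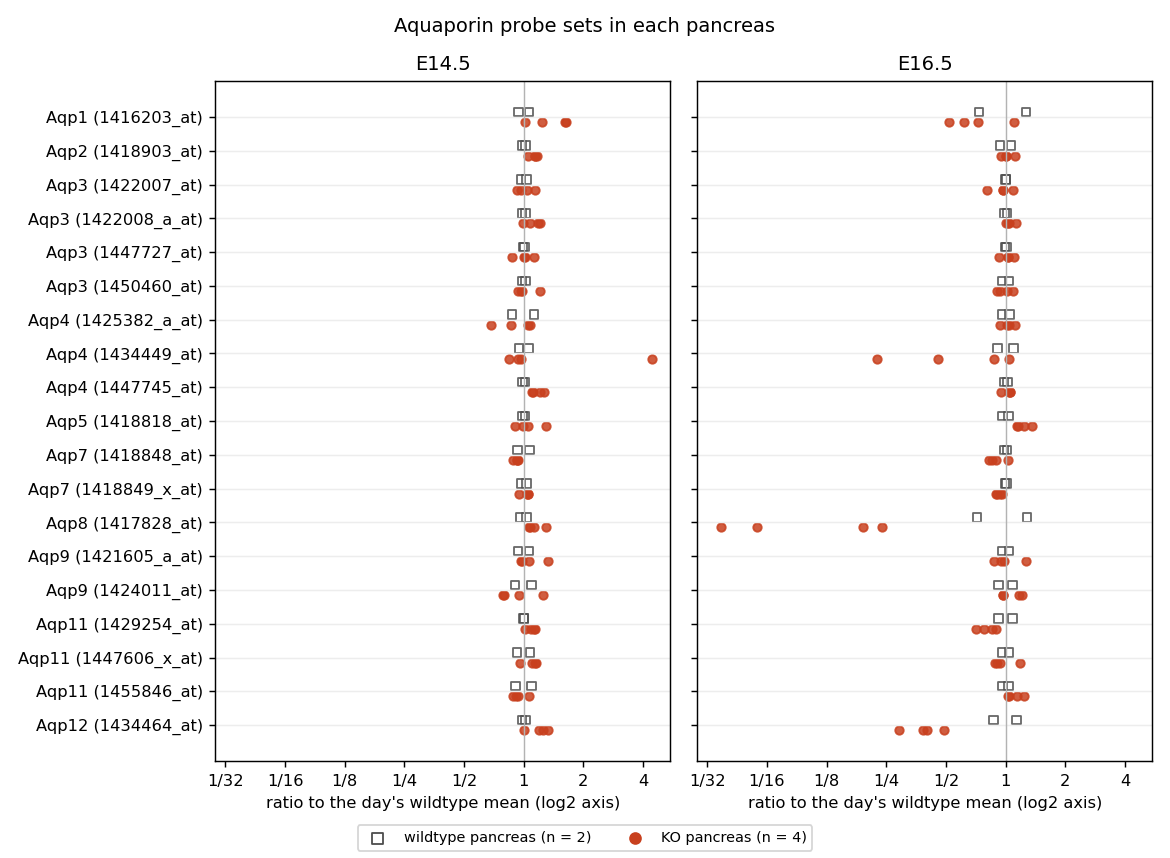
Ratio to the wildtype mean of the day (horizontal log2 axis, the same in both panels) of the 19 aquaporin probe sets (rows) in each wildtype pancreas (open squares, 2 per day) and KO pancreas (filled circles, 4 per day) at E14.5 (left) and E16.5 (right). At E16.5 Aqp8 spans 0.0367 to 0.238 in the KO and Aqp12 0.288 to 0.489, and at E14.5 the value farthest from 1 is the 4.43 of Aqp4 1434449_at in KO_615A.

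Across the family at E14.5, 0 of 19 probe sets passed in limma (adjusted p = 0.677 to 0.9996), 1 had an unadjusted p under 0.05, and 0 passed by the adjusted test of the study's methods. The share of all probe sets that passed was 0.0111%. The KO was higher in 15 and lower in 4. All 4 KO lay above both wildtype pancreata in 4 probe sets (Aqp2, Aqp4 1447745_at, Aqp8, Aqp11 1429254_at), where 8.17% of all probe sets did, and below in 0, where 8.06% did. The median log2 difference was 0.11, beside 0.02 over all probe sets, and 17 of 19 were within 0.25 of 0, as were 82.3% of all.

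At E16.5, in the comparison that chose the family, 9 probe sets were higher and 10 lower, and no test was made. All 4 KO lay above both wildtype pancreata in 1 probe set (Aqp5), where 14.5% of all did, and below in 4 (Aqp7 1418849_x_at, Aqp8, Aqp11 1429254_at, Aqp12), where 11.1% did. The median log2 difference was -0.02, beside 0.03 over all probe sets, and 13 of 19 were within 0.25 of 0, against 73.4% of all. The family as a whole was centred near the wildtype mean, with Aqp8 and Aqp12 far below it. The aquaporins that are no members, Aqp6, next to Aqp5 on chromosome 15, and Mip, the lens channel, had log2 differences of -0.32 and 0.08 at E16.5 and did not pass (limma adjusted p = 0.292 and 0.889).

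Genes that act with aquaporins in fluid secretion were tested at both days. Of 32 listed, 28 were measured. At E14.5 0 passed (3 at an unadjusted p under 0.05, and 0 by the test of the study's methods), with 19 higher, 9 lower and a median log2 difference of 0.04. At E16.5 2 fell and 0 rose, where 2.62% of all probe sets passed. At an unadjusted p under 0.05 there were 11, a level for which no share over all probe sets was counted. The KO was higher in 10 and lower in 18, with a median of -0.06. Both that fell belong to the receptors and calcium group, and none of 17 ion transport genes passed.

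Rab3d, a small GTPase of zymogen granules, was at 0.259 in KO_541J, 0.228 in KO_541L, 0.303 in KO_591C and 0.482 in KO_591D at E16.5, beside 0.840 and 1.16 in wildtype. All 4 KO were far below wildtype (log2 difference -1.70, standard error 0.24, limma adjusted p = 0.00532), as on 2 of its 3 other probe sets. At E14.5 Rab3d was at 1.19 to 1.39 in the KO, above wildtype in all 4, and did not pass (log2 difference 0.40, limma adjusted p = 0.831). Its E16.5 call ended with the day fitted on its own 6 arrays, after quantile normalization and by the test of the study's methods (adjusted p = 0.0771 and 0.108 in limma, and 0.318).

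Stim1, the calcium sensor that opens store-operated calcium entry, was at 0.601, 0.716, 0.673 and 0.709 in KO_541J, KO_541L, KO_591C and KO_591D at E16.5, beside 1.15 and 0.849 in wildtype. The log2 difference was -0.55 (standard error 0.13, limma adjusted p = 0.0424), and it passed in 7 of 21 alternatives. Its other probe set had a log2 difference of 0.11. Cckar, the acinar receptor for cholecystokinin, was at 0.163, 0.109, 1.05 and 0.111 in KO_540C, KO_540G, KO_615A and KO_615B at E14.5. All but KO_615A were far below wildtype (0.969 and 1.03), and the log2 difference of -2.23 did not pass (standard error 1.01, limma adjusted p = 0.725). Cckar was at 0.0412 to 0.549 at E16.5 (log2 difference -2.25, limma adjusted p = 0.290).

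Among the ion transporters, Slc26a6, an apical chloride and bicarbonate exchanger of ducts, had a log2 difference of -0.39 at E14.5 (limma adjusted p = 0.727) and of -0.72 at the later day (limma adjusted p = 0.0568). Kcnq1, a potassium channel, had -0.81 at E16.5 (limma adjusted p = 0.183), and Slc9a3r1, a scaffold of apical transporters, 0.52 at E14.5 (limma adjusted p = 0.658). Cftr, the ductal chloride channel and the first gene of the list, was at 0.951 to 0.990 in the E14.5 KO and 1.01 to 1.08 in the E16.5 KO.

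**Figure D4:**
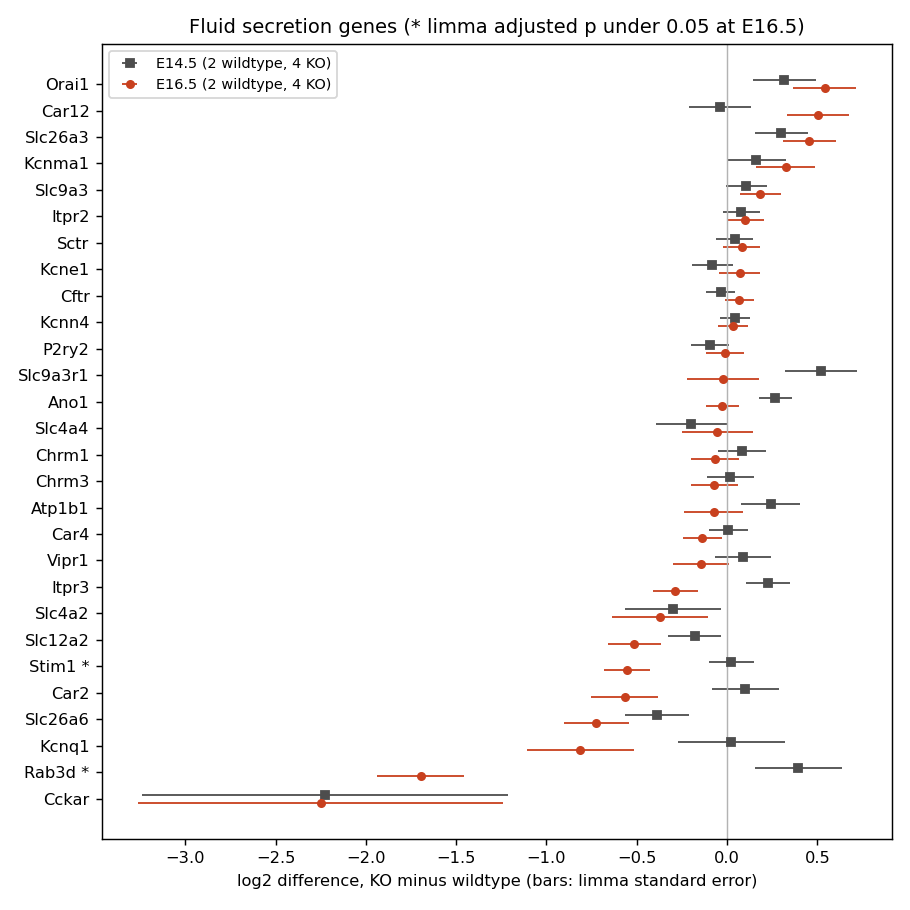
Log2 difference, KO minus wildtype, of 28 fluid secretion genes (rows) at E14.5 (squares) and E16.5 (circles), from 2 wildtype and 4 KO pancreata a day, with limma standard errors as bars. Rab3d and Stim1, starred, passed at E16.5; Cckar lies farthest below 0 at both days with a standard error of 1.01 and did not pass.

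No gene passed in the other 2 lists. Of 11 measured genes of the osmotic and cell volume response 0 passed in limma at either day, and 0 had an unadjusted p under 0.05. Its largest differences were Lrrc8a, a subunit of the volume-regulated anion channel, at 0.39 and Trpv4, an osmosensitive cation channel, at -0.18 at E14.5, and Hspa4l, a heat shock protein, at 0.27 and Nfat5, the transcription factor of the osmotic response, at -0.20 at E16.5 (log2, limma adjusted p = 0.491 to 0.870). Of 5 measured glycerol and lipid droplet genes 0 passed at either day, with 0 at an unadjusted p under 0.05 at E14.5 and 1 at E16.5, Plin2, a coat protein of lipid droplets (log2 difference 0.49, limma adjusted p = 0.0650). Gpd2, the mitochondrial glycerol phosphate dehydrogenase, was at 0.46 at E16.5, and Pnpla2, a triglyceride lipase, and Gpd1 were at 0.22 and 0.10 at E14.5 (log2, limma adjusted p = 0.312 to 0.937).

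The remaining cell markers give the setting of these pancreata. Of 6 duct genes 2 fell at E16.5, Muc1 and Anxa13, and none of 8 islet genes passed (5 and 3 at an unadjusted p under 0.05 at the 2 days), with medians of 1.35 to 2.25 in the E14.5 KO and 0.990 to 2.40 in the E16.5 KO. At E16.5 Csf1r of 7 leukocyte genes (log2 difference 1.20, limma adjusted p = 0.0383) and Col3a1 of 5 mesenchyme genes (log2 difference 1.06, limma adjusted p = 0.0488) rose, and Tff2 of 6 stomach genes fell. The other probe sets of Csf1r, with log2 differences of 0.47 and 0.07, and of Col3a1, with 0.38, did not pass (limma adjusted p = 0.278 to 0.872). None of the adipocyte (3 measured), nerve and glia (4) or stratified epithelium (3) genes passed at either day. The markers Muc1, Anxa13, Tff2, Onecut1, Cuzd1, Zg16, Gp2, Rbpjl, Bhlha15, Cela1, Alas2, Slc4a1, Epb42 and Fabp7, and Cftr, were named after their values were seen.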

How the data were processed

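RNA of 12 pancreata was amplified in 2 rounds and hybridised by the authors, summarised with RMA in GeneSpring and divided by the day's wildtype average. The deposited values are these linear ratios: the 2 wildtype ratios of a day sum to 2 within 3e-07. The division removes abundance, so no filter on dim probe sets was possible. Array number limits the precision. Of 45101 probe sets 64 controls were set aside.

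A model of 4 groups was fitted to log2 ratios in limma 3.58.1 (R 4.3.3; 8 residual degrees of freedom), with Benjamini-Hochberg adjustment over 45037 probe sets, limit 0.05, two-sided. The fit was tested on simulated data. Gene symbols come from the platform annotation (34945 probe sets with 1 symbol, 932 with several, 9160 with none). All member probe sets are reported. For listed genes 1 probe set was chosen by its name alone (_at, then _a_at, then _s_at or _x_at, lowest number). The members and lists were chosen with earlier results of these data known. Named are all members, genes of the fluid secretion, osmotic, glycerol and other aquaporin lists that passed or had the 2 largest differences of a list and day, the 5 nearest Aqp8, and up to the first 3 markers per cell type. Others are marked as named after their values were seen. Promoter windows and loci are RefSeq's (GRCm38.p6). Alternatives were trended and robust variance, each day alone, quantile normalization, median centring, array weights, the number in the array name as a random block (statmod 1.5.0), untransformed ratios, the methods' t-test, omission of _x_at and _s_at probe sets, the mean over probe sets, and leaving out each array. The t-test was adjusted over all probe sets, without the fold filter that the study applied before it. Figures used matplotlib in Python.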

Additional observations from a re-analysis of the deposited data

Results flagged for a closer look

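In 3 of 38 groups of 4 KO pancreata 1 sample stood apart by Dixon's gap ratio, whose critical value chance passes in about 1 group in 20. These were KO_615A for Aqp4 1434449_at at E14.5 (gap ratio 0.912), KO_541L for Aqp4 1447745_at at E16.5 (0.878) and KO_615A for Aqp7 1418849_x_at at E14.5 (0.838). The first was far above the rest, at 4.43. The others were below the rest, at 0.942 and 0.948.

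On 3 probe sets the 4 KO pancreata were all above 1 at E14.5 and all below 1 at E16.5. The log2 differences were 0.19 and -3.29 for Aqp8, 0.25 and -1.37 for Aqp12, and 0.12 and -0.31 for Aqp11 1429254_at. The difference between the days was not tested, because the family was selected on the E16.5 value of Aqp8. The share of all probe sets with this change between the days was not counted, so the 3 have no background beside them.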

How the results depend on the processing

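At E14.5 the number of aquaporin probe sets past the limit was 0 in all 21 alternatives, and the smallest adjusted p over 283 values was 0.363 (Aqp4 1447745_at, array weights). The E16.5 log2 difference of Aqp8 was -3.71 (without KO_591D) to -2.82 (without KO_541L) with 1 array left out, and -2.03 after quantile normalization, which gave -0.89 for Aqp12. The fluid secretion count at E14.5 was 0 in all 22 alternatives. At E16.5 that count, 2 here, was 1 with trended and robust variance, with untransformed ratios and with the mean over probe sets, 0 with each day alone, after quantile normalization and by the methods' t-test, and 4 with array weights. Leaving out 1 array gave 1 to 5, the latter without KO_591D.

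Of 283 member values at E14.5, 17 changed sign, each with an adjusted p of at least 0.938. Aqp3 1422007_at was at -0.025 with array weights and -0.038 to 0.064 with 1 array left out. Aqp3 1447727_at was at -0.024 after quantile normalization, -0.0088 after median centring, -0.025 with array weights and -0.056 to 0.069 with 1 array left out. Aqp3 1450460_at was at -0.030 with array weights and -0.052 to 0.071 with 1 array left out. The other signs turned only with 1 array left out. The ranges were -0.33 to 0.040 for Aqp4 1425382_a_at (positive without WT_522C), -0.13 to 0.67 for Aqp4 1434449_at, -0.027 to 0.14 for Aqp5, -0.013 to 0.075 for Aqp7 1418849_x_at, -0.25 to 0.030 for Aqp9 1424011_at and -0.21 to 0.060 for Aqp11 1455846_at. No paired analysis was possible because the array names carry no replicate number shared by KO and wildtype.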
